A study of Mus musculus with 6 samples.

Results

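Described here are 10 genes whose RNA was higher in mouse neurospheres than in embryonic stem cells and in multipotent adult progenitor cells: *Gpm6a*, *Gpm6b*, *Adgrg1*, *Ptprs*, *Ramp1*, *Kcnmb4*, *Fabp5*, *Npdc1*, *A2m* and *Lratd1*. They were chosen from these same 6 arrays for that pattern, so their excess in neurospheres is given as a description and was not tested. They are 10 of 35790 genes tested and are covered by 12 of 41006 probes, with 2 probes each for *Fabp5* and *Ptprs* and 1 for each of the other 8. Of the genes tested only 12114 have a gene name. The rest are probes kept under their own identifier, and shares over all genes include them. All 10 passed the filter on dim probes, but any of them that was dim elsewhere passed it through neurospheres, where it is high.

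The study set 3 cultured cell types against each other on 2-colour Agilent oligonucleotide arrays, with 2 biological replicates each. Neurospheres (NS) are floating clusters of neural stem and progenitor cells. Here they came from C57BL/6 forebrain neuroepithelium of E11.5 embryos and were expanded in N2-plus medium with bFGF and EGF at 20 ng/mL. Embryonic stem cells (ESC), also C57BL/6, were cultured in 15% serum with LIF on irradiated mouse embryo fibroblasts and moved off those feeders before RNA was taken. Multipotent adult progenitor cells (MAPC) were a bone marrow line, clone 2 with high Oct4, depleted of CD45+ and Ter119+ cells after 4 weeks and replated at 10 cells per well. They were used beyond 80 population doublings, in 5% oxygen and 2% serum with EGF, PDGF-BB and LIF. Both MAPC arrays carry that one clone, so clones cannot be told apart from the cell type, and medium, oxygen and source differ together with cell type. On each array the sample was in Cy3. A common reference, pooled RNA of 11 mouse cell lines, was in Cy5, with no dye swap.

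A proliferating neural progenitor of the embryonic forebrain has a process-bearing, polarised shape, and much of its characteristic gene set encodes membrane and extracellular proteins. Gpm6a and Gpm6b are 4-span membrane glycoproteins of the proteolipid family and take part in neurite and process growth. Adgrg1 (also GPR56) is an adhesion G protein-coupled receptor of neural progenitors that is needed for an intact pial basement membrane, and Ptprs is a receptor tyrosine phosphatase that binds chondroitin and heparan sulphate proteoglycans. Ramp1 is an accessory protein that turns the calcitonin-like receptor Calcrl into a receptor for the peptide CGRP, and Kcnmb4 is the neuronal auxiliary subunit of the BK calcium-activated potassium channel. Fabp5 carries fatty acids in the cytoplasm, Npdc1 is a neural membrane protein linked to the exit of precursor cells from the cell cycle, and A2m is a secreted inhibitor of proteases. Lratd1 belongs to a small family defined by a lecithin-retinol acyltransferase domain, and its function is less well known.

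Each probe is a 60-base oligonucleotide, and a gene's value rests on the single stretch of transcript it binds. The 2 probes for *Ptprs* gave different answers (below), the 2 for *Fabp5* gave the same answer, and the probe for *A2m* was placed by its accession, since *A2m* was once also a name of the separate gene *Pzp*. For these 5 probes 30 of the 60 bases are shown, the last 30 for *Ptprs* and *Fabp5* and the first 30 for *A2m*, 5′ to 3′, with a polyadenylation hexamer (AATAAA or ATTAAA) in capitals where the stretch holds one.
Ptprs, brighter probe: accaactttgtATTAAAgaaagattcgtcc
Ptprs, other probe: actcccctgcctgccttttggcaacatttt
Fabp5, brighter probe: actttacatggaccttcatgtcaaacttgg
Fabp5, other probe: acgtgttagtgctaatttatgatatgtgtg
A2m: ttgttcttcatggtgcagcaagatattcca

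The brighter *Ptprs* probe has 43.3% G and C over its 60 bases and holds ATTAAA, a common variant of the polyadenylation signal. The other *Ptprs* probe has 58.3% G and C and holds neither hexamer. Over all probes the median was 43.3%, and 6.1% of probes were as rich in G and C as that second *Ptprs* probe. One of the hexamers was found in 5 of the 12 probes (*Adgrg1*, 1 of the *Fabp5* pair, *Npdc1*, 1 of the *Ptprs* pair and *Ramp1*) and in 10.1% of all probes on the array. The hexamers were searched on the probe strand as deposited, and a match describes the letters only.

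Start sites of 8 of the 10 genes matched RefSeq's promoter table (build GRCm38.p6), with 11 promoters in all because *Adgrg1*, *Gpm6a* and *Ptprs* have 2 each. *Fabp5* and *A2m* were not among them. The 250 bases before the start ran from 1 CpG in a *Gpm6a* promoter to 43 CpG for *Kcnmb4*, where the median over all 32851 promoters was 6. The promoters of *Kcnmb4* and *Ramp1* are shown because these 2 genes followed nearly the same pattern over the 6 arrays while their promoters differ widely in composition. Capitals mark each CpG, and both are written in the sense of the gene.
Kcnmb4, chr10:116473524-116473773, minus strand: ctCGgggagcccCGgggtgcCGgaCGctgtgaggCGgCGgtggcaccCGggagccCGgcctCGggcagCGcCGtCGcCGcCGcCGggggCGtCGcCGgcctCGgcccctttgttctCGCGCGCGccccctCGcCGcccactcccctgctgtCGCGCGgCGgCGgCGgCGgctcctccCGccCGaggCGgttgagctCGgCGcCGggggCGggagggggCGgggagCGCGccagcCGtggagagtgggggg
Ramp1, chr1:91179572-91179821, plus strand: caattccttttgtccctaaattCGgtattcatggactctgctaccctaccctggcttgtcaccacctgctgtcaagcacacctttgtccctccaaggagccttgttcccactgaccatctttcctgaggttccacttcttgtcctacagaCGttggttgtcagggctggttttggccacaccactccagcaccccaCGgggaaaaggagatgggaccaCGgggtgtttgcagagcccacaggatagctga

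The *Kcnmb4* promoter is 83.6% G and C with 43 CpG, and that of *Ramp1* is 54.0% G and C with 4 CpG. A handful of motifs were searched on both strands of these windows. ATTGTT, the core bound by Sox proteins, was in 1 of the 11 promoters (*Gpm6a*), against 9.42% of all promoters. TGGGAA, the core bound by the Notch effector RBPJ, was in 2 (*Ptprs* and *Ramp1*), against 21.6%. TTGGCA, part of the site bound by nuclear factor I, was in 3 (*Gpm6a*, *Lratd1* and *Npdc1*), against 12.3%. TATAAA, the TATA box, was in 1 (*Gpm6a*), against 12.4%, and the octamer ATGCAAAT was also in 1 (*Gpm6a*), against 1.6%. No match was shared by more than 3 of the 8 genes.

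Signals below are intensities after subtraction of the local background, as deposited. As a gauge of what remains after that subtraction there are 314 negative control spots. Their median sample signal was between 1.68 and 11.1 by array, and their highest single spot reached 165. The scanner software marked 91.9% to 99.6% of probe spots on an array as well above background, so that mark is a lenient one. Ratios are log2 of sample over reference after background correction with an offset of 50 and loess normalisation, and a difference between groups is a difference of mean log2 ratios with its moderated standard error (SE) from limma. The offset pulls ratios of dim spots towards 0, so for members near background the ratio understates the change.

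**Figure D1:**
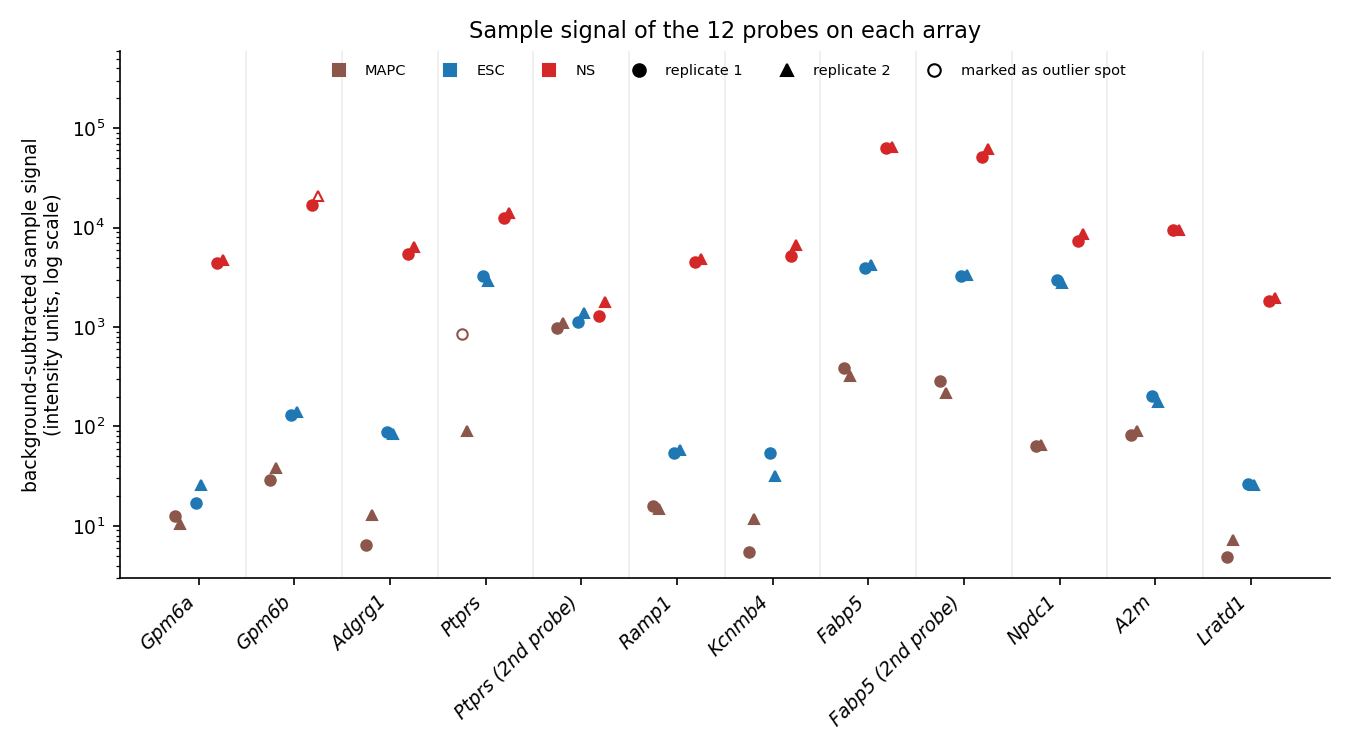
Background-subtracted sample signal (intensity units, log scale) of the 12 probes on each of the 6 arrays, with colour for the cell type, circles for replicate 1 and triangles for replicate 2. The NS arrays lie above all ESC and MAPC arrays for 11 of the 12 probes by a wide margin, and at the second *Ptprs* probe all groups lie between 986 and 1793.

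The proteolipid-family genes *Gpm6a* and *Gpm6b* were bright on the NS arrays and dim elsewhere, *Gpm6a* close to background. *Gpm6a* gave sample signals of 4390.5 and 4763 in NS, 16.9 and 25.6 in ESC and 12.5 and 10.4 in MAPC. On every ESC and MAPC array but the first ESC array at least 1 negative control spot was brighter than this probe, and 1 MAPC array was not marked well above background. Its log2 ratios were 4.99 and 4.95 in NS, -0.31 and -0.30 in ESC and -0.40 and -0.71 in MAPC, so NS exceeded MAPC by 5.52 ± 0.0958 (SE) and ESC by 5.27 ± 0.0958.

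*Gpm6b* gave 16793 and 20606 in NS, 130 and 140.03 in ESC and 28.7 and 38.5 in MAPC. The 3 groups did not overlap, and ESC stood above MAPC on both arrays. The second NS spot was marked as an outlier by the scanner software and left out of the fit, so the NS mean rests on 1 array with a log2 ratio of 5.15. With that array NS exceeded MAPC by 6.18 ± 0.122 and ESC by 5.17 ± 0.122, and the spot left out had a log2 ratio of 5.08.

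*Adgrg1*, the adhesion receptor, gave 5471 and 6359 in NS, 87.4 and 83.1 in ESC and 6.39 and 12.8 in MAPC. The first of the MAPC arrays was not marked well above background. Log2 ratios were 4.19 and 4.15 in NS, -0.73 and -1.05 in ESC and -2.04 and -2.02 in MAPC, differences of 6.20 ± 0.0979 from MAPC and 5.07 ± 0.0979 from ESC.

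*Ptprs*, the receptor phosphatase, is the one gene whose probes disagreed. The brighter probe gave 12441 and 13863 in NS, 3290.0 and 2884 in ESC, and 845 and 91.1 in MAPC. The first MAPC spot was marked as an outlier and left out, so the MAPC mean of -5.53 rests on 1 array. On this probe NS exceeded MAPC by 5.97 ± 0.0855 and ESC by 2.20 ± 0.0698 in log2 ratio. With the outlier spot kept at its own log2 ratio of -3.39, the 2 MAPC arrays differ far more than any other pair of replicates among these probes.

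At the other *Ptprs* probe the signals were 1298 and 1793 in NS, 1121 and 1374 in ESC and 986 and 1093 in MAPC. These overlap between NS and ESC, and the NS excess in log2 ratio was 0.32 over MAPC and 0.31 over ESC. A single value for *Ptprs* therefore depends on which probe is read, and every statement on it here rests on the brighter one. Among the genes set beside these, some were singled out after their values were seen. *Bcan*, *Celsr3*, *Sox9*, *Prom1*, *Cldn11*, *Arhgef1* and *Pdgfrb* also had 1 probe past the threshold in both NS contrasts and another that moved by at most 0.34 (log2). The probes for *Gpc6* went opposite ways against MAPC, at -1.33 and 0.46.

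*Ramp1*, the receptor accessory protein, gave 4542 and 4857 in NS, 53.5 and 58.4 in ESC and 15.8 and 14.9 in MAPC. The 3 groups were separate and the replicates close. Log2 ratios were 3.16 and 3.18 in NS, -1.62 and -1.69 in ESC and -2.25 and -2.37 in MAPC, differences of 5.48 ± 0.0623 and 4.82 ± 0.0623.

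*Kcnmb4*, the BK channel subunit, gave 5210.1 and 6729 in NS, 54.5 and 32.0 in ESC and 5.49 and 11.8 in MAPC. One MAPC array was not marked well above background. Log2 ratios were 4.54 and 4.56 in NS, -0.68 and -1.02 in ESC and -1.56 and -1.49 in MAPC. NS exceeded MAPC by 6.08 ± 0.102 and ESC by 5.40 ± 0.102.

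*Fabp5*, the fatty acid carrier, was strong in NS, in ESC and in the reference, and weaker in MAPC. Its brighter probe gave 63406 and 65149 in NS, 3945 and 4194 in ESC and 384 and 325 in MAPC. The second NS spot was saturated, so that value is a floor. Log2 ratios were 1.504 and 1.302 in NS, -2.40 and -2.17 in ESC and -5.39 and -5.46 in MAPC. The differences of 6.83 ± 0.0962 from MAPC and 3.69 ± 0.0962 from ESC were nearly repeated by the second probe, at 7.27 and 3.98, which was not saturated and gave 51402 and 62196 in NS.

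*Npdc1* was the member closest between NS and ESC. It gave 7307 and 8533 in NS, 2940 and 2740.4 in ESC and 63.4 and 64.5 in MAPC. The log2 ratios of 0.58 and 0.61 in NS, -0.89 and -0.94 in ESC and -5.35 and -5.27 in MAPC put NS 5.91 ± 0.0556 above MAPC and 1.51 ± 0.0556 above ESC. The step from ESC to NS was 2.84-fold, and the ESC level lay nearer to that of NS than to that of MAPC.

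*A2m*, the protease inhibitor, gave 9418 and 9520 in NS, 202 and 176 in ESC and 81.3 and 90.2 in MAPC. Log2 ratios were 5.52 and 5.57 in NS, 0.95 and 0.42 in ESC and -0.05 and -0.07 in MAPC. NS exceeded MAPC by 5.60 ± 0.147 and ESC by 4.86 ± 0.147, and its ESC arrays were the ones that spread most (SD 0.37, n = 2).

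*Lratd1* gave 1836 and 1953 in NS, 26.5 and 25.6 in ESC and 4.88 and 7.25 in MAPC. Neither MAPC array was well above background, and only 75.8% and 61.1% of the negative control spots lay below its signal on them. Its MAPC level is therefore only a bound: NS was at least 46.5-fold higher than MAPC, from the sample channel after loess and Aquantile normalisation with MAPC set at the lowest signal well above background, and that single-channel value is open to dye bias because dyes were not swapped. Log2 ratios were 5.03 and 5.02 in NS and 0.49 and 0.45 in ESC, a difference of 4.55 ± 0.0507. At this probe the reference was itself not well above background on any ESC or MAPC array, at 15.4 to 20.5. The ESC ratios are therefore taken over a reference near background, and the small SE does not reflect that.

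**Figure D2:**
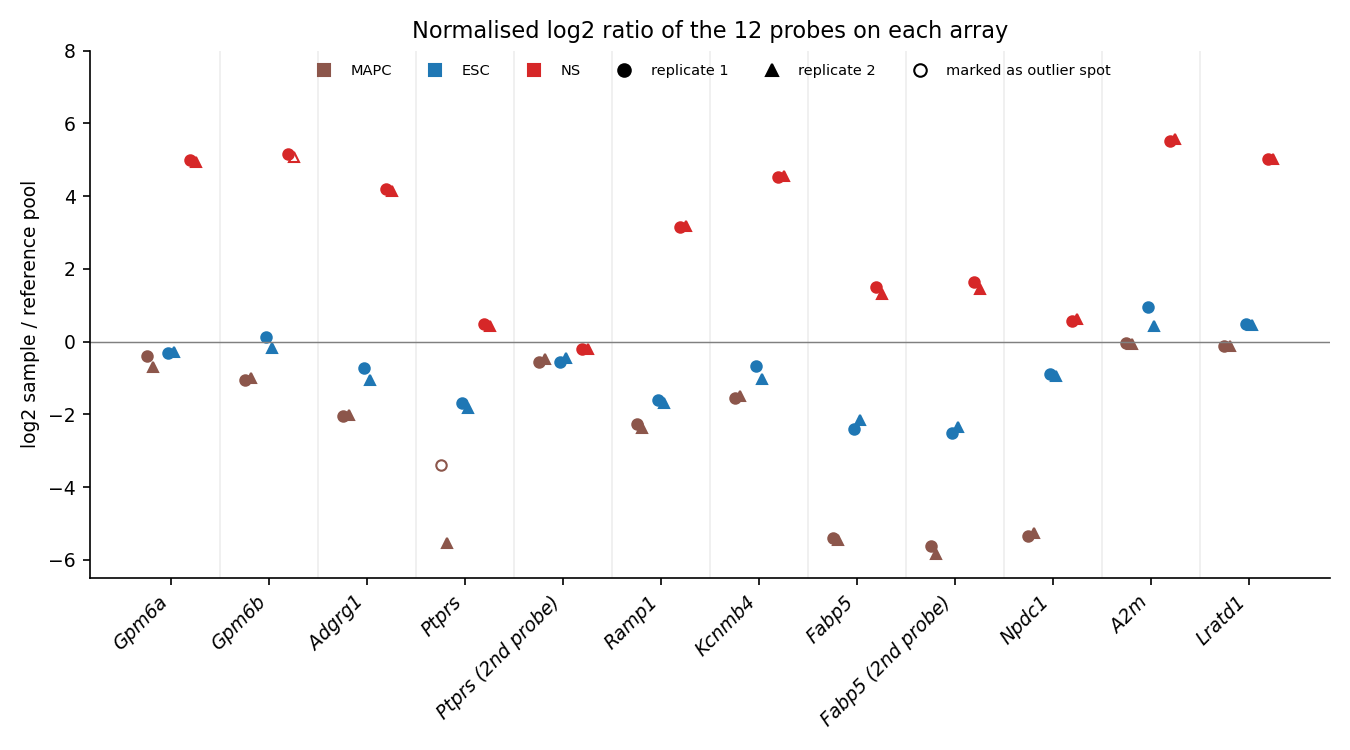
Normalised log2 ratio of sample to reference pool for the 12 probes on each array, with open symbols for the 2 spots that the scanner software marked as outliers. Replicates lie close together for all probes but the brighter *Ptprs* probe in MAPC, and the order NS, ESC, MAPC recurs at the brighter probe of every gene.

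Read together, the 10 genes had the order NS above ESC above MAPC in their mean log2 ratios. The median NS excess over MAPC was 5.94, also with *Lratd1* at its bound, where the median over all genes tested was -0.03. For the 9 genes well above background on at least 1 MAPC array it ran from 5.48 for *Ramp1* to 6.83 for *Fabp5*, the latter with 1 saturated NS spot. Of these, *Gpm6a*, *Adgrg1* and *Kcnmb4* each had 1 MAPC array not well above background. The median excess over ESC was 4.84 (range 1.51 to 5.40), where that of all genes was -0.0085. These medians follow from how the genes were chosen. For scale, 22.5% of all genes were higher and 21.2% lower in NS than in MAPC at an adjusted p under 0.05 (limma, Benjamini-Hochberg), and 18.4% were higher and 19.8% lower than in ESC. The NS arrays serve in both contrasts, so the contrasts are not independent of each other. The smallest differences from ESC were those of *Npdc1*, at 1.51, and *Ptprs*, at 2.20. In RNA from whole cultures, fewer cells that express a gene and less of its RNA per cell cannot be told apart.

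The sample signals alone gave larger folds than the ratios for the dim members. Before any normalisation between arrays, mean NS signal over mean MAPC signal was 690.4 for *Kcnmb4*, 615 for *Adgrg1*, 556 for *Gpm6b*, 399 for *Gpm6a* and 306 for *Ramp1*. The ratios gave 67.6-fold for *Kcnmb4*, 73.5-fold for *Adgrg1* and 72.3-fold for *Gpm6b*. For *Fabp5* the corresponding values were 181 by signal and 114-fold by ratio, and for *Ptprs* they were 28.1, with the outlier spot in the mean, and 62.8-fold. The direction was the same on either scale.

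The reference channel added an observation that the choice of genes did not use. The same pooled RNA was in Cy5 on every array, so its signal at a probe should vary only technically. For 8 of the 12 probes it was nevertheless higher on both NS arrays than on all 4 others. At *Lratd1* it read 78.3 and 92.5 on the NS arrays and 15.4 to 20.5 on the others, a ratio of means of 4.56. The ratio was 3.23 at *Gpm6b* (960 and 1302 against 292 to 439), 3.18 at *Gpm6a* (260 and 313 against 75.02 to 107), 1.81 at *Kcnmb4*, 1.59 at *Ramp1*, 1.43 at *A2m* and 1.38 at *Adgrg1*.

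At the 5 probes with a strong reference signal it stayed between 0.984 (*Npdc1*) and 1.19 (the brighter *Fabp5* probe). The NS excess of the 7 genes with a raised reference is thereby divided by a raised reference in the ratio, which makes their ratio smaller than it would be against the other arrays' reference. The same was measured over the whole array. Among 100 probes with a sample signal at least 16-fold higher in NS than in both others and a mean reference under 1000, the reference was a median 2.14-fold of that on the other arrays, against 0.992 over all probes with such a reference. For 82 probes high in ESC it was 1.83 against 1.13, and for 55 high in MAPC it was 1.56 against 0.883. With a reference of 1000 or over it was 1.05 for 7 probes high in NS and 1.12 for 21 high in ESC, but 1.53 for 61 high in MAPC, against 0.974, 1.04 and 0.986 over all such probes. Its source was not tested.

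**Figure D3:**
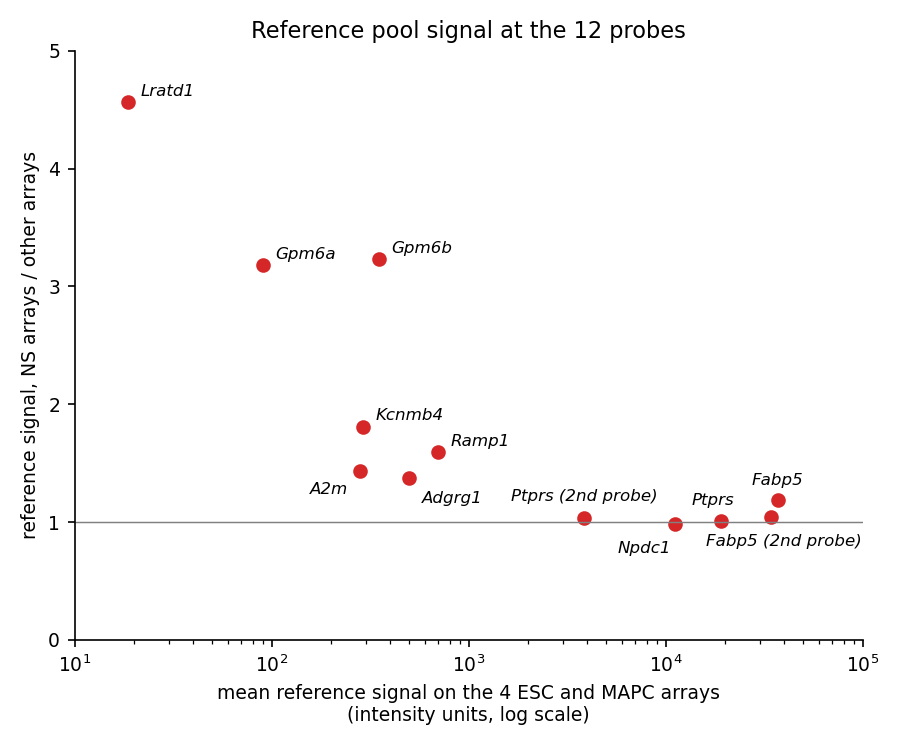
Ratio of the mean reference signal on the 2 NS arrays to that on the 4 ESC and MAPC arrays, for the 12 probes, against the mean reference signal on those 4 arrays (intensity units, log scale), with the grey line at 1. The 7 probes with a mean reference under 1000 lie between 1.38 and 4.56, and the 5 with a stronger reference lie between 0.984 and 1.19.

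The contrast between ESC and MAPC was the one that the choice of genes did not use directly, although its arrays do enter the choice. In limma with Benjamini-Hochberg adjustment over all genes, 9 of the 10 members were higher in ESC than in MAPC and 0 were lower. Over all genes tested 38% differed, 22.1% higher and 15.9% lower. The median difference of the 10 genes was 0.88 (log2), against -0.01 over all genes. *Gpm6a* was the member that missed the threshold, at 0.25 ± 0.0958 (SE, adjusted p = 0.07993, limma, n = 2 arrays per group).

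The differences formed a wide step and a narrow one. *Npdc1* was higher in ESC by 4.40 ± 0.0556 (21.1-fold, adjusted p = 1.317e-08 in limma), *Ptprs* by 3.77 ± 0.0855 on its brighter probe (13.6-fold, adjusted p = 2.548e-07) and *Fabp5* by 3.14 ± 0.0962 (8.82-fold, adjusted p = 2.26e-07). For these 3 genes ESC carried clear signal. The *Ptprs* difference was 0.0057 at its other probe, and with the mean of both probes it was 0.65 with an adjusted p of 0.4863, so that call rests on 1 probe and on 1 MAPC array.

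The remaining 6 were higher in ESC by 0.59 to 1.13: *Adgrg1* by 1.13 ± 0.0979, *Gpm6b* by 1.01 ± 0.0999, *A2m* by 0.75 ± 0.147, *Kcnmb4* by 0.68 ± 0.102, *Ramp1* by 0.66 ± 0.0623 and *Lratd1* by 0.59 ± 0.0507, with adjusted p from limma between 5.158e-05 and 0.004812. These genes were dim in both cell types, and the size of the step depended on how background was treated. At *Lratd1* the sample was not well above background in MAPC, nor the reference in ESC or MAPC. Its adjusted p of 5.164e-05 (limma) belongs to the ratio difference of 0.59 and so rests on values near background. By the sample channel ESC was at least 1.36-fold higher, a bound that was not tested. In limma without background subtraction *Kcnmb4* was at 0.13 (adjusted p = 0.238) and *Lratd1* at 0.11 (adjusted p = 0.08095), and both missed the threshold. In limma on the sample channel alone *Kcnmb4* (0.57, adjusted p = 0.05145) and *A2m* (0.44, adjusted p = 0.1097) missed it.

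Arrays numbered 1 were read from their images on one day and those numbered 2 on another, per the file headers, so the difference can also be taken within each day. *A2m* differed between ESC and MAPC by 1.00 on the first day and 0.50 on the second, *Kcnmb4* by 0.88 and 0.48, and *Gpm6a* by 0.09 and 0.41. *Npdc1* differed by 4.46 and 4.34 and *Fabp5* by 2.99 and 3.29. Every within-day difference of the 10 genes that could be taken was above 0.

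**Figure D4:**
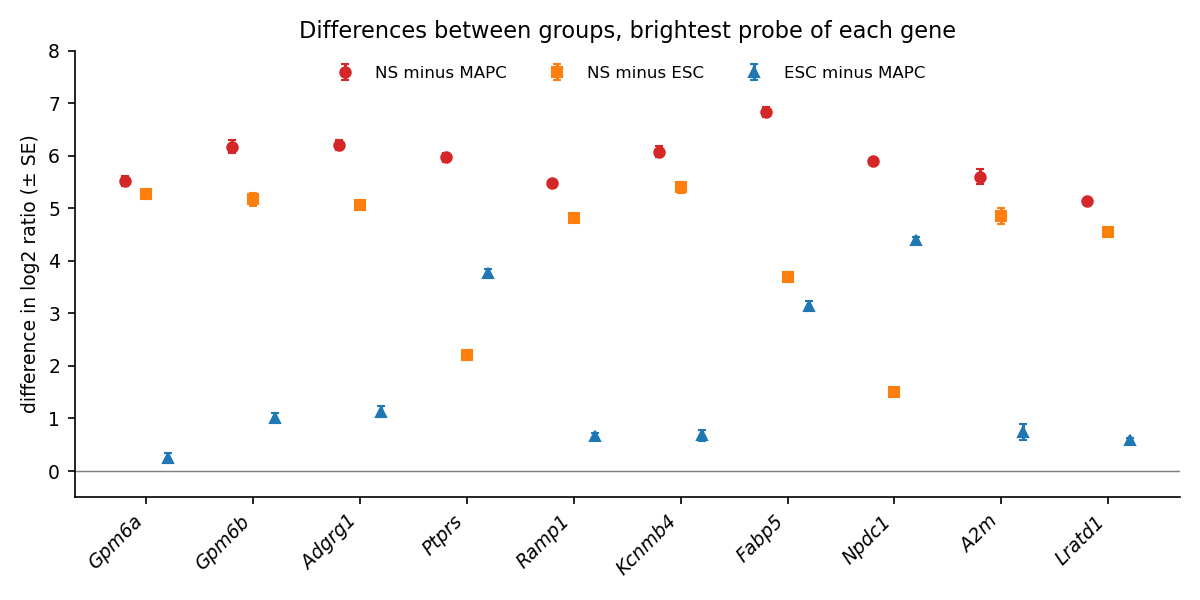
Difference in mean log2 ratio between groups for the brighter probe of each of the 10 genes, with bars for the moderated SE. NS minus MAPC lies between 5.48 and 6.83 for the 9 genes well above background on at least 1 MAPC array (*Fabp5* with 1 saturated NS spot). *Lratd1*, well above background on neither MAPC array, is plotted at its computed ratio. NS minus ESC lies between 1.51 and 5.40, and ESC minus MAPC is large (3.14 to 4.40) for *Fabp5*, *Npdc1* and *Ptprs* and at most 1.13 for the other 7.

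The relatives and partners of the 10 genes did not share their pattern as a body. Of 131 related genes listed, 77 were measured. In NS against MAPC 27 were higher, 12 were lower and 38 did not pass the threshold, with a median difference of 0.03, and in NS against ESC 19 were higher, 19 were lower and 39 did not pass, with a median of 0.0073. These shares, beside 22.5% and 21.2% and beside 18.4% and 19.8% over all genes, are described without a test of the list. Related genes named below were picked by a rule, with some exceptions. *Ramp2*, *Ramp3*, *Kcnmb1*, *Plaat3*, *Cd109*, *C3*, *Crabp1* and *Celsr1* were singled out after their values were seen. *Calca* and *Calcb* were also named outside the rule.

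The list set beside *Ramp1* was the calcitonin family of receptors and ligands. *Calcrl*, the receptor that *Ramp1* partners, was higher in NS by 3.23 over MAPC (adjusted p = 4.4288e-08, limma) and by 2.65 over ESC (adjusted p = 2.1048e-07). *Adm*, which encodes adrenomedullin, a peptide ligand of Calcrl joined to Ramp2 or Ramp3, was higher by 4.98 and 2.96. The other accessory proteins went differently from *Ramp1*: *Ramp2* was lower in NS than in MAPC by a difference of -1.86 and higher than in ESC by 0.64, and *Ramp3* was at -0.13 against MAPC, not past the threshold, and at -0.92 against ESC. *Calca* and *Calcb*, which encode CGRP itself, did not pass in either contrast, at -0.05 and 0.0044 against MAPC. Of the 10 genes measured in this list 3 were higher and 1 lower in NS than in MAPC, and 3 were higher and 3 lower than in ESC.

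Among the fatty acid binding proteins and their kin 10 were measured. *Fabp7*, the brain fatty acid binding protein of radial glia, was saturated on both NS arrays, so its levels there are bounds. In the normalised sample channel NS was at least 470.2-fold higher than MAPC and at least 398-fold higher than ESC. These single-channel folds were not tested and are open to dye bias. In log2 ratio the NS excess was much smaller, 3.87 over MAPC (adjusted p = 1.134e-07, limma) and 3.47 over ESC, with the NS spots saturated. *Fabp3*, the heart form, was saturated on both MAPC arrays, and in the sample channel NS was at least 148-fold lower than MAPC. In log2 ratio NS was lower than MAPC at -4.71 (adjusted p = 2.031e-08, limma) and lower than ESC at -3.92. The retinoid carrier *Crabp1* was higher in NS than in MAPC, by 1.65, and lower than in ESC, by -2.61. In all 3 of the 10 were higher and 1 lower than in MAPC, and 1 was higher and 5 lower than in ESC.

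For *Ptprs*, the list of receptor phosphatases, proteoglycan ligands and synaptic partners held 12 measured genes, and *Ptprf* and *Ptprd*, its closest relatives, were not measured here. *Bcan*, the brain chondroitin sulphate proteoglycan brevican, was higher in NS by 4.50 over MAPC and 3.81 over ESC at its brighter probe (adjusted p = 6.9272e-09 and 2.4909e-08, limma), while its other probe gave 0.34 and 0.31. *Ntrk3*, a neurotrophin receptor that binds Ptprs across the synapse, was higher by 1.94 in both contrasts. Of the heparan sulphate glypicans, *Gpc1* was higher by 0.91 and 0.52 and *Gpc4* was lower by -2.93 and -1.79. In this list 6 were higher and 3 lower than in MAPC, and 6 were higher and 2 lower than in ESC.

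Among 12 measured relatives of *Adgrg1*, the adhesion receptors, *Adgrb2* was higher in NS by 2.14 over MAPC and 1.99 over ESC (adjusted p = 8.1989e-08 and 2.1347e-07, limma). *Celsr3* was higher by 0.56 and 0.53 at its brighter probe, and *Adgra2* was lower by -2.86 and -2.10. *Celsr1* was higher than in MAPC by 2.20 and did not pass against ESC, at 0.02. Of these, 7 did not pass against MAPC and 8 did not pass against ESC. Of the ligands and downstream proteins, *Tgm2*, a ligand of Adgrg1, was at 0.04 against MAPC, not past the threshold, and lower than in ESC at -0.70. *Arhgef12*, a guanine nucleotide exchange factor that acts below receptors of this kind, was higher by 1.73 and 0.94, while *Rhoa* was lower by -0.71 and -0.30. *Arhgef1* was lower by -0.47 and -0.63 at its brighter probe, while its other probe gave -0.18 and -0.08. *Col3a1*, which encodes another ligand, was not measured here.

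The proteolipid relatives and myelin genes set beside *Gpm6a* and *Gpm6b* included 12 measured genes, of which 7 were higher and 2 lower than in MAPC and 5 were higher and 1 lower than in ESC. Of the 5 that were higher in both contrasts, the 4 named by the rule are genes of the oligodendrocyte lineage: *Olig1* by 3.56 and 2.59, *Cspg4* by 1.61 and 0.55, *Cnp* by 0.85 and 0.78 and *Olig2* by 0.71 and 0.65. *Olig2* was not well above background in ESC, where NS was at least 1.44-fold higher.

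No related gene of *Kcnmb4*, *A2m* or *Lratd1* was higher in both contrasts. *Kcnma1*, the pore-forming subunit that *Kcnmb4* modifies, was at 0.12 against both MAPC and ESC (adjusted p = 0.13929 and 0.17468, limma), with sample signals from 49.8 to 151 over the 6 arrays. Of the 4 BK channel genes measured, *Kcnmb1* was lower in NS than in MAPC, at -0.38, and no other passed. *Lrp1*, the receptor that clears A2m complexes, was higher than in MAPC by 3.79 (adjusted p = 8.4522e-09, limma) and lower than in ESC at -0.26 (adjusted p = 0.01138). *Pzp*, the gene once also named A2m, was at -0.10 against MAPC (adjusted p = 0.29473, limma) and lower than in ESC at -0.95, in contrast to *A2m*. *Cd109* and *C3* were higher than in MAPC, at 2.28 and 0.33, and neither passed against ESC. *Plaat3*, of the family with an acyltransferase domain like that of *Lratd1*, was higher than in MAPC by 2.65 and at -0.16 against ESC, and the other 3 measured members of that family did not pass. *Lratd2* was not measured here.

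**Figure D5:**
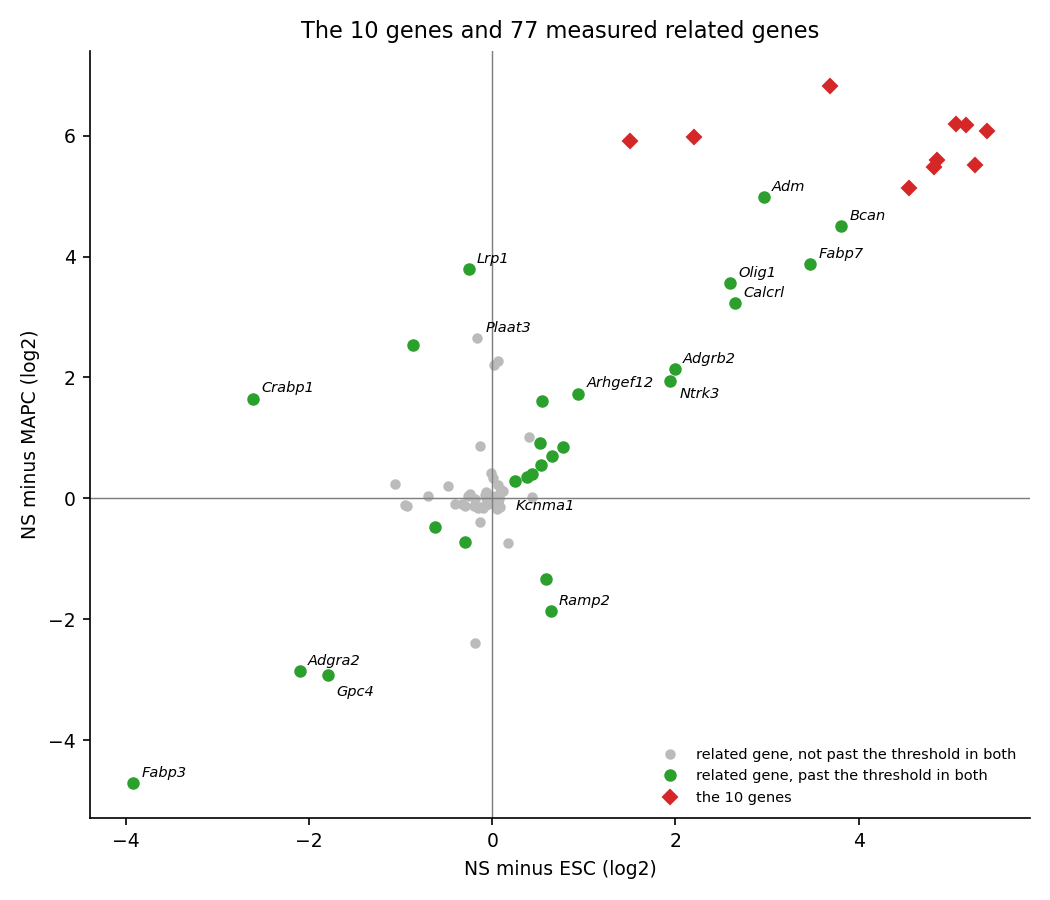
NS minus MAPC against NS minus ESC (difference in log2 ratio) for the 10 genes (red) and the 77 measured related genes (green where past an adjusted p of 0.05 in both contrasts, grey otherwise). The 10 genes lie at upper right, where they were chosen to be, *Adm*, *Bcan*, *Fabp7*, *Olig1* and *Calcrl* are the related genes nearest to them, and most related genes lie near the origin. *Fabp7* and *Fabp3*, saturated in NS and in MAPC, are plotted at their computed ratios.

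The label of neurospheres was checked against marker lists. Of 15 neural progenitor markers, 13 were higher in NS than in MAPC (median difference 3.46) and 12 were higher than in ESC (median 2.57), with 0 lower in either. Among markers with no bound on either side, *Ptprz1*, a receptor phosphatase of radial glia, had the largest NS excess over MAPC in log2 ratio, 5.71, and *Sox17*, an endoderm factor, had the largest deficit, -5.66. Without *Fabp7*, which was saturated in NS, the sample signals of the other 14 summed to 44333 and 52417 in NS, 13088 and 15067 in ESC and 3493 and 3851 in MAPC. The list was thus highest on the NS arrays, as their label calls for, although single genes weigh on the sums. *Sox2* alone gave 9519 and 10063 of the ESC sums and was at 0.08 in NS against ESC, not past the threshold. *Msi1* alone gave 2566 and 2793 of the MAPC sums, and *Msi1* and *Sox1* passed in neither NS contrast. Of the 8 pluripotency markers *Dppa5a* was saturated in ESC, and the other 7 summed to 1075 and 1293 in NS and to 12011 and 11423 in ESC.

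Markers of other cells moved with NS as well. The 3 astrocyte markers measured were higher in NS than in both others, and they summed to 1860 and 2141 in NS, 192 and 246 in ESC and 109 and 128 in MAPC. *Aldh1l1* alone gave 1564 and 1832 of the NS sums. The 9 oligodendrocyte markers summed to 10846 and 11613 in NS, 4030 and 5356 in ESC and 3156 and 3173 in MAPC, with 5 higher and 2 lower than in MAPC. Of the NS sums *Olig1* alone gave 6845 and 6893, against 426 and 606 in ESC, so the excess of the sum over ESC is mostly that gene. *Mog* and *Mag*, which define mature oligodendrocytes, were not higher than in either. Of 9 neuron markers, 7 were higher and 1 lower than in MAPC, and 4 were higher and 3 lower than in ESC. They summed to 10808 and 11939 in NS and to 28574 and 27306 in ESC. Most of the ESC sums was the single gene *Stmn2*, at 23927 and 22240 in ESC and 694 and 775 in NS, so the sums do not describe the list.

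The fibroblast list, which marks feeder cells among others, summed to 8257 and 9412 in NS, 18984 and 16909 in ESC and 1220 and 1129 in MAPC. *Fbln2* alone gave 6262 and 7033 of the NS sums. In this list 8 of the 9 genes were higher in ESC than in MAPC, against 22.1% over all genes. So were 7 of the 8 pluripotency markers, 11 of the 15 neural progenitor markers and 9 of the 10 members. Of the 6 primitive endoderm markers 0 were higher and 6 lower. The microglia list of 8 genes summed to 515 on 1 NS array and 2705 on the other, where a single *Adgre1* spot marked as an outlier gave 2225, and 0 of its genes were higher in NS than in either. *Ptprc*, another gene of that list, gave 15.8 and 3.26 in NS. The 6 endothelial markers summed to 1045 and 1412 in NS, 1103 and 1313 in ESC and 1050 and 1150 in MAPC. Of the 6 primitive endoderm markers *Lamb1* was saturated in MAPC, and the other 5 summed to 792 and 852 in NS and to 29872 and 30076 in MAPC. The part of any of these cells in the values of the 10 genes was not tested.

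The members differed in how closely they followed one profile. Of the 10, 8 had a value on all 6 arrays, and the median of their centred log2 ratios served as the profile. The root mean square distance from it, in log2 units, was 0.105 for *A2m*, 0.113 for *Ramp1*, 0.210 for *Adgrg1*, 0.231 for *Lratd1*, 0.237 for *Kcnmb4* and 0.277 for *Gpm6a*. *Fabp5*, at 0.947, and *Npdc1*, at 1.63, stood apart, both with ESC closer to NS than in the rest.

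The named genes outside the set nearest to that profile over the 6 arrays were *Chst7* (distance 0.150), *Ptprz1* (0.301), *Prkcb* (0.347), *Hes5* (0.462), *Nap1l5* (0.492) and *Nr2f1* (0.496). *Chst7* encodes a sulphotransferase that acts on chondroitin, *Prkcb* a protein kinase C, *Hes5* a transcriptional repressor induced by Notch, and *Nr2f1* a transcription factor that patterns the cortex. *Chst7* had log2 ratios of 5.12 and 5.27 in NS, 0.70 and 0.58 in ESC and -0.53 and -0.44 in MAPC, so it lay closer to the profile than 6 of the 8 members. *Ptprz1*, a member of the same enzyme class as *Ptprs*, had 5.73 and 5.17 in NS, 0.02 and 0.58 in ESC and -0.25 and -0.27 in MAPC. With 3 groups of 2 arrays, closeness to the profile says only that NS was high and that ESC and MAPC were low by similar amounts.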

How the data were processed

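Per the file headers, images were read with version A.7.5.1 of Agilent's Feature Extraction. For each spot and dye the deposited files hold mean and local background intensities, background-subtracted intensities, and processed intensities that Feature Extraction normalised between dyes. They also hold a log10 ratio, per the file headers, of processed red (reference) over green (sample), which the processed values gave back within 0.001 for 99.4% of spots. The deposited series matrix is on a log10 scale with column medians from 2.95 to 2.97. Its differences were compared between the first NS and the first MAPC array. For 96.4% of spots off its floor they equalled those of the deposited log ratio with the sign reversed. The matrix therefore runs as sample over reference, and its centring is not known.

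Intensities were corrected with normexp (offset 50) and normalised by loess in limma 3.58.1 (R 4.3.3, with the package data.table in version 1.17.8). Values are log2 sample over reference. Left out were 2396 control spots and all outlier spots. Names came from RefSeq: 15294 probes by accession, 15 by symbol, 72 by older symbol. The other 25625 had no match and kept their own identifier in the tests. The brightest probe stood for a gene. A gene was tested if it was well above background on both arrays of at least 1 group. One model over 6 arrays (3 residual degrees of freedom) gave moderated SE and two-sided p-values, Benjamini-Hochberg adjusted over all genes, and was tested on simulated data first.

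The members and lists were chosen with earlier results of these data known. Related genes were named where past 0.05 in both NS contrasts in 1 direction, at most 4 per list, beside preset partners, some of which are not reported here. Markers were named for the largest and smallest NS difference, and others, such as those that dominate a sum, after their values were seen. Replicates with one number share a day of image reading, and their deviations correlated at 0.104 to 0.208 between groups. Columns left without a sample numbered 0. Number of arrays limits precision.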

Additional observations from a re-analysis of the deposited data

How the results depend on the processing

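The direction of all 10 genes held in all 3 contrasts under each alternative run, wherever a gene had a value. The median NS excess over MAPC, 5.94 as reported, was 6.81 with plain background subtraction, 4.30 with none, 6.35 with an offset of 16, 6.82 with the deposited processed intensities, 6.41 with the sample channel alone, 6.77 with the series matrix, 5.75 with outlier spots kept and 5.75 with the mean of a gene's probes. The NS excess over ESC, 4.84 as reported, was 5.06, 3.90, 5.03, 5.13, 5.66 and 5.13 under the first 6 of these, and 4.26 over the 6 members well above background on all 6 arrays, where fewer genes enter. The cause was not tested. Leaving out 1 array in turn gave 5.92 to 5.94 and 4.69 to 4.99, and 8 to 10 members higher in ESC than in MAPC.

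With the replicate number as a block, which is also the day of image reading, 9 of the 10 members were still higher in ESC and 14183 genes differed in all, and related genes past the threshold numbered 40 against MAPC and 38 against ESC; no call of a member changed. *Gpm6a* passed between ESC and MAPC in limma with the processed intensities (0.84, adjusted p = 0.04491), with the series matrix (0.75, adjusted p = 0.02749) and without the first MAPC array (0.41, adjusted p = 0.003554). Related genes lower in NS than in ESC fell from 19 to 12 with the sample channel alone. Signals near background limit *Lratd1*, *Gpm6a*, *Kcnmb4* and *Adgrg1* in MAPC.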
